A study of Mus musculus with 4 samples.

Results

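A set of 10 genes of nucleic acid sensing and interferon beta induction was followed across 4 arrays: the sensors Ifih1, Ddx58, Dhx58, Tlr3 and Zbp1, the adaptor Mavs, the kinase Tbk1, the transcription factors Irf3 and Irf7, and the cytokine Ifnb1. They were chosen by name, out of 37067 gene names on the array, with earlier values of these arrays in view, so their values are given as a description. All non-control probes that carry one of the 10 names were taken, which gave 19 probes. Of the genes, 3 have 1 probe (Mavs, Tbk1 and Ifnb1) and 7 have several. The scanner software flagged all 19 probes as well above background on all 4 arrays, and all 19 entered the test.

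The arrays measured RNA from GC-1 cells, a mouse spermatogonial line, on a one-colour Agilent 8x60k design, to ask how raised Hdac6, a mainly cytoplasmic deacetylase, alters transcripts. In the first group, cells received a pCMV plasmid with murine Hdac6, tagged with myc/DDK and driven by the CMV promoter (2 arrays, Hdac6 vector 1 and 2). In the second group, cells received the empty vector (2 arrays, empty vector 1 and 2). All cells were thus transfected with plasmid, and all were harvested at 48 h. Untransfected cells were not analysed here. Separate cultures are not named in the labels. The p-values therefore cover the spread between these arrays and no more, and that spread may be technical.

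Ifih1 (MDA5) and Ddx58 (RIG-I) are cytoplasmic helicases that bind double-stranded RNA and, through Mavs on mitochondria, activate the kinase Tbk1. Tbk1 phosphorylates Irf3 and Irf7, which enter the nucleus and switch on Ifnb1. Secreted interferon beta signals through JAK and STAT proteins and raises many further genes, Ddx58, Ifih1, Dhx58, Tlr3, Zbp1 and Irf7 among them. Transfected DNA can also be sensed in many cell types, by Cgas and its adaptor Sting1.

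The stretch upstream of Ifnb1 is shown first because Ifnb1 differed most between arrays, and those of Ddx58 and Tlr3 because they hold one of the same motifs. RefSeq promoters (GRCm38.p6) were matched for 8 of the 10 genes, all but Dhx58 and Zbp1. The letters AANNGAAA, a core that interferon regulatory factors bind, and GGGA followed by NNNN and CC, a core that NF-kB binds, were searched on both strands in the 250 bases before each start. Capitals mark matches to either, and the TATAAA letters near the end of the Ifnb1 stretch stand in lower case. The stretches lie on the minus strand at chr4:88522870-88522959, chr4:40239871-40239900 and chr8:45410426-45410455.
Ifnb1: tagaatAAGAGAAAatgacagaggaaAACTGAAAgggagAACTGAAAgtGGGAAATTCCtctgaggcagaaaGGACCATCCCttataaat
Ddx58: ggctgtctaggttcagAAACGAAActggat
Tlr3: gaggtaagtgaatggcTTTCACTTtgttta

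Ifnb1 held AANNGAAA at 159, 139 and 126 bases before its start, and the NF-kB core at 116 and 93 bases. Ddx58 and Tlr3 each held AANNGAAA at 59 bases, Tlr3 on the opposite strand, and Tlr3 held the NF-kB core at 211 and 23 bases. AANNGAAA stood in 3 of the 8 promoters, against 21.3% of 32851 promoters, and the NF-kB core in 2 of 8, against 17.6%. TATAAA stood in 3 of 8 (Ifnb1, Ddx58 and Irf7), against 12.4%. The longer core of the interferon-stimulated response element, GAAA followed by NN and GAAA, stood in 0 of 8, against 2.98% of promoters. These matches are descriptions of letters in a window and not of binding. The longer core contains AANNGAAA, so these searches overlap.

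Ddx58 has probes along its transcript, and the 3 that lie upstream of its 3′ end are shown because they differed between the empty vector arrays, where its 3′ probe was nearly level. They are 60 bases long, start at bases 492, 1146 and 2251 of the transcript and lie on chromosome 4 (mm9, minus strand) at 40176528 to 40176587, 40170969 to 40171028 and 40156918 to 40156977.
Ddx58 probe at base 492: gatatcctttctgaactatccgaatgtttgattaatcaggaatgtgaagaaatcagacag
Ddx58 probe at base 1146: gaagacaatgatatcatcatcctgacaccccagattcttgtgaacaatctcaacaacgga
Ddx58 probe at base 2251: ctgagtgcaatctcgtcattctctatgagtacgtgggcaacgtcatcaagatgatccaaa

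Over the whole array, 35206 probes for 23492 gene names were tested. The share of spots well above background was 61.0% to 66.4%, and the array's upper quartile (75th percentile) of processed signal over probes was 815.1 and 452.6 with the Hdac6 vector, against 666.0 and 692.9 with the empty vector. A level is given throughout as the log2 processed signal minus that percentile, so 0 stands for a probe at it. The single Hdac6 probe read 2.62 and 3.24 with the Hdac6 vector, against 3.31 and 2.83 with the empty vector. The sources used here do not say whether the plasmid's insert holds that probe's stretch, so the probe does not check the labels. Of 14 spermatogonial markers 9 were tested, and Dazl, Kit and Ret were not well above background on any array. Of 11 leukocyte markers 7 were tested, and Adgre1, Tyrobp, Spi1 and Cx3cr1 were not well above background on any array. Between the arrays of a group, 4.75% of 32837 probes were at least 2-fold apart with the Hdac6 vector, and 6.02% of 34963 probes with the empty vector.

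Ifnb1, the cytokine at the end of the pathway, was high on one of the 4 arrays. Its probe (chromosome 4, 88168023 to 88168082, mm9, minus strand) starts at base 616 of the transcript. Its level was -2.96 and -2.72 on the Hdac6 vector arrays, and -2.90 and -0.12 on the empty vector arrays. As processed signal this was 104.7 and 68.7 with the Hdac6 vector, and 89.4 and 639 with the empty vector. Both Hdac6 vector arrays and empty vector 1 thus lay close together, and empty vector 2 stood apart from all 3. Empty vector 2 read 6.87-fold above empty vector 1, while Hdac6 vector 2 read 1.18-fold above Hdac6 vector 1. A gap at least as large in the same direction was seen for 14 of 34963 probes between the empty vector arrays (0.0400%).

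The groups overlapped for Ifnb1. Its log2 fold change was -1.33, that is 0.397-fold with the Hdac6 vector (95% interval 0.130 to 1.22, n = 2 arrays per group, limma adjusted p = 1.00). That value rests on a single array. Without empty vector 2 the log2 fold change was 0.06. Without empty vector 1 it was -2.72 and passed limma's test (adjusted p = 1.685e-06), with the lone empty vector array assumed to vary like the rest.

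**Figure D1:**
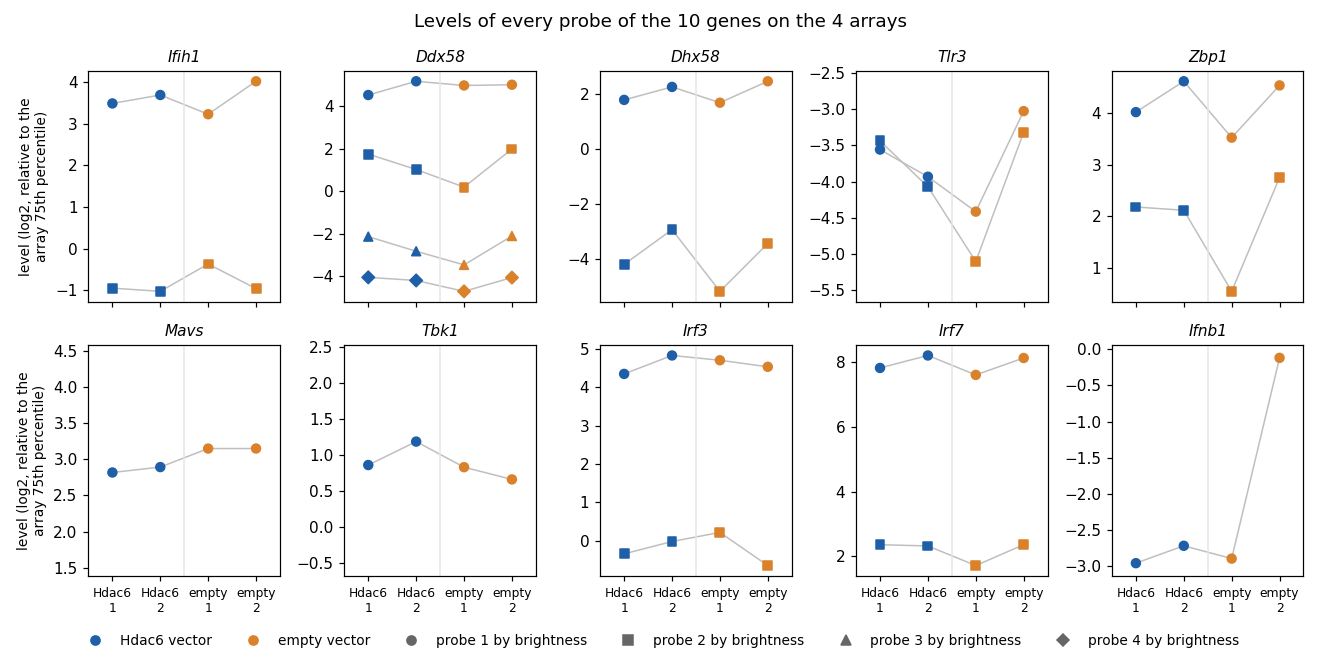
Level of every probe (log2, relative to the array's 75th percentile, vertical axis) on the Hdac6 vector (blue) and empty vector (orange) arrays, 1 panel per gene and 1 symbol per probe, numbered by brightness. Grey lines join the values of a probe, and each panel has its own range. Ifnb1 sits at -2.96 and -2.72 with the Hdac6 vector and at -2.90 and -0.12 with the empty vector.

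Across all 19 probes, 0 were called changed between Hdac6 vector and empty vector arrays at a limma adjusted p under 0.05, against 0.0114% of all tested probes (4 of 35206, all 4 higher with the Hdac6 vector). None of the 19 had an unadjusted p under 0.05, which 644 of all tested probes had. The smallest unadjusted p among them was that of Ifnb1, 0.0951 in the limma fit over all probes. The median log2 fold change was 0.15 over the 19 probes and 0.02 over all tested probes. Leaving out empty vector 2 called 1 of the 19 as well, the Zbp1 probe at base 1783 (log2 1.60, limma adjusted p = 0.0014). That fit called 334 probes of the whole array.

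**Figure D2:**
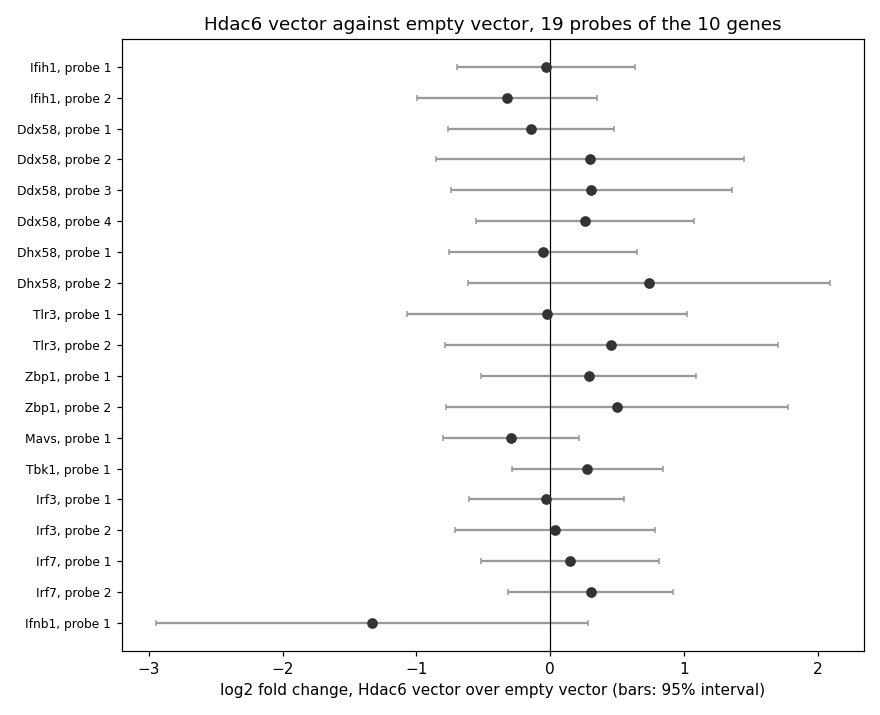
Log2 fold change, Hdac6 vector over empty vector (horizontal axis), for the 19 probes, with points at the limma estimate and bars for its 95% interval (n = 2 arrays per group). Probes of a gene are numbered by brightness. All 19 intervals cross 0, and that of Ifnb1 reaches from -2.95 to 0.28.

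Between the empty vector arrays, 5 of the 10 genes had at least 1 probe at least 2-fold apart, and 7 of the 10 have several probes. By the brightest probe alone, Tlr3, Zbp1 and Ifnb1 were at least 2-fold higher on empty vector 2 (3.25% of all gene names). Ddx58 (1.02-fold) and Dhx58 (1.71-fold) were not, by that probe. On empty vector 2, 8 of the 19 probes were at least 2-fold higher than on empty vector 1 (3.83% of all probes), and 0 were at least 2-fold lower (2.19%). The 8 probes belong to Ddx58, Dhx58, Tlr3, Zbp1 and Ifnb1. With the Hdac6 vector 1 of 19 was at least 2-fold apart, a Dhx58 probe that was higher on array 2 (1.76% in that direction), and 0 were at least 2-fold lower (2.99%). Of the 19 probes, 10 were highest on empty vector 2 (17.7% of all tested probes) and 12 were lowest on empty vector 1 (28.2%). By any size, 15 of 19 were higher on empty vector 2 than on empty vector 1 (48.2%). At a threshold of 1.5-fold, 14 of 19 were apart between the empty vector arrays (20.6%), 12 of them higher on array 2 (11.0%) and 2 lower (9.65%). Between the Hdac6 vector arrays 6 of 19 were apart by that much (20.8%). The median of empty vector 2 minus empty vector 1 was 0.78 over the 19 probes and -0.02 over all probes. Hdac6 vector 2 minus Hdac6 vector 1 had a median of 0.20 over the 19 probes and 0.15 over all probes. With 1 array on each side these differences have no test. The count of 8 fell to 4 under normexp background correction, with the Ddx58 probe at base 2251, both Zbp1 probes and Ifnb1 still past 2-fold.

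**Figure D3:**
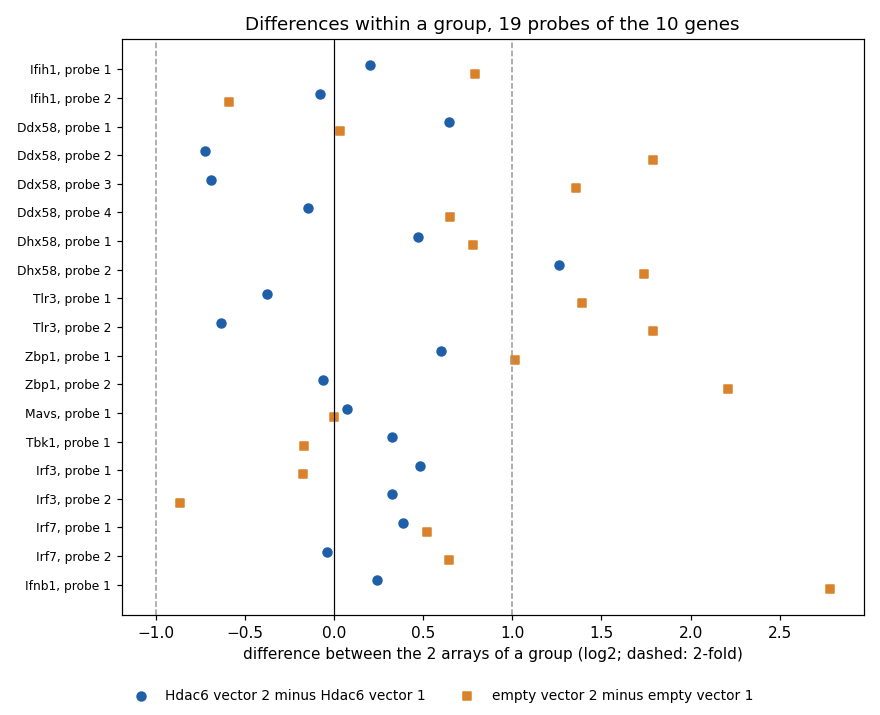
Difference between the arrays of a group (log2, horizontal axis) for each of the 19 probes, with circles for Hdac6 vector 2 minus 1 and squares for empty vector 2 minus 1, and dashed lines at 2-fold. Squares of 8 probes lie right of the upper line, Ifnb1 farthest at 2.78, and 1 circle does, a Dhx58 probe at 1.26.

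The RNA helicases came next in role. Ifih1 binds long double-stranded RNA. Its probe at base 3688 (chromosome 2, 62435621 to 62435680, minus strand) read 3.49 and 3.69 with the Hdac6 vector, against 3.23 and 4.02 with the empty vector. Both Hdac6 vector arrays lay between the empty vector arrays, and the fold was 0.976 (95% interval 0.616 to 1.55). A probe to another Ifih1 transcript (62446313 to 62446372) read -0.95 and -1.03 with the Hdac6 vector, against -0.37 and -0.96 with the empty vector. Its empty vector arrays were apart in the opposite direction from those of the first probe, so the probes of Ifih1 disagreed.

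Ddx58 senses short double-stranded RNA with a 5′ triphosphate. Its probe nearest the 3′ end, at base 3800 (chromosome 4, 40151893 to 40151952, minus strand), read 4.52 and 5.17 with the Hdac6 vector, against 4.97 and 5.01 with the empty vector. Those empty vector arrays were nearly level, 1.02-fold apart, and lay between the Hdac6 vector arrays. The upstream probes printed above behaved otherwise. At base 2251 the level was 1.75 and 1.03 with the Hdac6 vector, against 0.20 and 1.99 with the empty vector. At base 1146 it was -2.13 and -2.82 with the Hdac6 vector, against -3.46 and -2.10 with the empty vector. At base 492, the dimmest of the Ddx58 probes, it was -4.04 and -4.19 with the Hdac6 vector, against -4.70 and -4.05 with the empty vector. In all 3 upstream probes empty vector 1 was the lowest array, and empty vector 2 was above it by 3.46-fold, 2.56-fold and 1.57-fold in the order given. The folds of the Hdac6 vector over the empty vector were 1.23, 1.24 and 1.20 for these probes and 0.906 for the 3′ probe, all with 95% intervals across 1.

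Dhx58 (LGP2) is a helicase of the same family, which lacks the signalling domains of Ifih1 and Ddx58 and tunes their activity. At base 2279 (chromosome 11, 100556271 to 100556330, minus strand) it read 1.78 and 2.25 with the Hdac6 vector, against 1.68 and 2.46 with the empty vector. The groups overlapped, with array 2 above array 1 in each (1.39-fold with the Hdac6 vector and 1.71-fold with the empty vector). A dim probe to another Dhx58 transcript (100564085 to 100564144) read -4.19 and -2.93 with the Hdac6 vector, against -5.17 and -3.43 with the empty vector. Array 2 was again above array 1 in each group, by 2.40-fold with the Hdac6 vector and 3.34-fold with the empty vector. On empty vector 1, where it read -5.17, the lowest level of any probe still well above background was -6.38.

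Tlr3 is the endosomal receptor for double-stranded RNA and signals through Ticam1 rather than Mavs. Its probe at base 3557 (chromosome 8, 46481729 to 46481788, minus strand) read -3.56 and -3.93 with the Hdac6 vector, against -4.42 and -3.02 with the empty vector. Its probe at base 174 (46495198 to 46495257) read -3.44 and -4.07 with the Hdac6 vector, against -5.11 and -3.32 with the empty vector. Both probes had empty vector 1 lowest and empty vector 2 highest, 2.62-fold and 3.46-fold above it. Under normexp correction, which adds an offset to every signal, the log2 gaps were 0.64 and 0.56. The fold of the Hdac6 vector over the empty vector was 0.983 (0.475 to 2.03) at base 3557 and 1.37 (0.580 to 3.25) at base 174.

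Zbp1 binds nucleic acids in the Z form and passes the signal to the kinases Ripk1 and Ripk3, which can end in necroptosis through Mlkl. At base 651 (chromosome 2, 173039307 to 173039366, minus strand) it read 4.02 and 4.62 with the Hdac6 vector, against 3.53 and 4.54 with the empty vector. At base 1783 of another transcript (173032258 to 173032317) it read 2.18 and 2.12 with the Hdac6 vector, against 0.55 and 2.75 with the empty vector. Empty vector 1 was again the lowest array for both, and empty vector 2 stood 2.02-fold and 4.62-fold above it. The folds of the Hdac6 vector over the empty vector were 1.22 (0.699 to 2.13) and 1.42 (0.584 to 3.43).

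The adaptor and the kinase differed little between arrays. Mavs (chromosome 2, 131073675 to 131073734, plus strand) read 2.82 and 2.89 with the Hdac6 vector, against 3.15 and 3.15 with the empty vector. Its groups did not overlap, with the Hdac6 vector lower at 0.815-fold (95% interval 0.574 to 1.16, limma adjusted p = 1.00). Tbk1, whose probe spans an exon junction (chromosome 10, 120988364 to 120988587, minus strand), read 0.86 and 1.18 with the Hdac6 vector, against 0.83 and 0.66 with the empty vector. Its groups did not overlap either, with the Hdac6 vector higher at 1.21-fold (0.818 to 1.79, limma adjusted p = 1.00). These were the 2 probes of the 19 without overlap, 1 lower and 1 higher, where 11.9% of all tested probes were lower without overlap and 13.1% higher. Groups without overlap keep the sign of their difference whichever array is left out. That the probes of Mavs and Tbk1 did so follows from this and adds nothing to it.

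Irf3, which is present before infection and activated by phosphorylation, stayed close across arrays at its 3′ end. At base 1512 (chromosome 7, 52257700 to 52257759, plus strand) it read 4.35 and 4.83 with the Hdac6 vector, against 4.71 and 4.54 with the empty vector. At base 745 (52255810 to 52255869) it read -0.35 and -0.02 with the Hdac6 vector, against 0.21 and -0.65 with the empty vector. In contrast to Ddx58, Tlr3 and Zbp1, empty vector 1 was the highest array for that upstream probe and empty vector 2 the lowest, at 0.549-fold of it. The folds of the Hdac6 vector over the empty vector were 0.979 (0.656 to 1.46) and 1.02 (0.610 to 1.72).

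Irf7, which interferon itself raises in many cells, read 7.81 and 8.19 with the Hdac6 vector, against 7.59 and 8.11 with the empty vector, at base 1777 (chromosome 7, 148449104 to 148449163, minus strand). At base 796, where the probe spans an exon junction (148450664 to 148451014), it read 2.36 and 2.32 with the Hdac6 vector, against 1.72 and 2.36 with the empty vector. Both probes were lowest on empty vector 1, and empty vector 2 was 1.43-fold and 1.56-fold above it. The folds of the Hdac6 vector over the empty vector were 1.11 (0.697 to 1.76) and 1.23 (0.806 to 1.89).

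Differences of at least 2-fold were more frequent at upstream probes than at 3′ probes over the whole array. Labelling began from an oligo-dT primer at the 3′ end. In 3692 transcripts with tested probes at least 500 bases apart, 8.32% of the most upstream and 3.03% of the most 3′ probes were at least 2-fold apart, in either direction, between the Hdac6 vector arrays. Between the empty vector arrays these shares were 8.67% and 4.01%. Upward alone, on empty vector 2, they were 5.61% and 1.68%, and 10.0% and 1.23% in the 1379 transcripts with probes at least 2000 bases apart. Between the empty vector arrays the upstream probe exceeded the 3′ probe in 49.6% of the 3692 transcripts (median difference -0.0045 on the log2 scale) and in 60.5% of the 1379 (0.19). For the Hdac6 vector minus the empty vector it did so in 74.5% of the 3692 (0.15).

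Between the empty vector arrays the place of the probe gave no common order within the 10 genes. Ddx58 differed between the empty vector arrays by 0.65 at base 492, 1.36 at base 1146, 1.79 at base 2251 and 0.03 at base 3800, so its gap was widest in the middle and not at the most upstream probe. Tlr3 was apart at both ends, by 1.39 at base 3557, where the probe holds an AATAAA polyadenylation signal, and by 1.79 at base 174. Irf3 ran the other way and Irf7 was about level (0.52 at base 1777 and 0.64 at base 796). Between the Hdac6 vector arrays (2 minus 1) each upstream probe of Ddx58, Tlr3, Irf3 and Irf7 lay below the gene's 3′ probe. For Ddx58 the differences were -0.15, -0.69 and -0.72 upstream, against 0.65 at base 3800. They were -0.64 against -0.38 for Tlr3, 0.32 against 0.48 for Irf3 and -0.04 against 0.38 for Irf7. Over the whole array the upstream probe was the higher in 44.0% of 3692 transcripts there. For the Hdac6 vector minus the empty vector each upstream probe of the same genes lay above the gene's 3′ probe. For Ddx58 the log2 fold changes were 0.26, 0.31 and 0.30 upstream, against -0.14 at base 3800. They were 0.46 against -0.02 for Tlr3, 0.03 against -0.03 for Irf3 and 0.30 against 0.15 for Irf7. All had intervals that reached both signs. Over the whole array that comparison had the upstream probe higher in 74.5% of the 3692 transcripts. Whether place in the transcript has a part in the values of the 10 genes was not tested. This check was chosen after the values were seen.

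**Figure D4:**
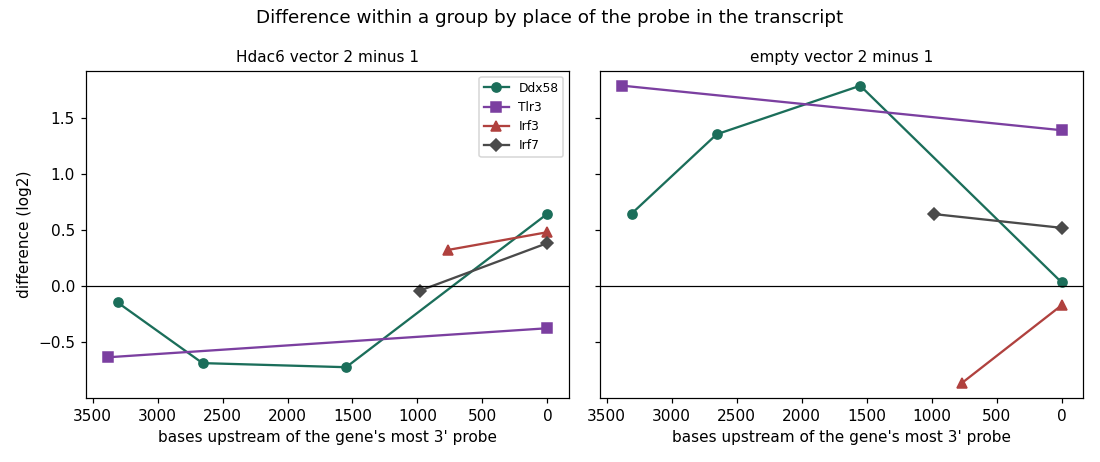
Difference between the arrays of a group (log2, vertical axis) against the distance of the probe from the gene's most 3′ probe (bases, falling to 0 at the right), for the Hdac6 vector (left) and the empty vector (right), for the 4 genes with several probes on 1 transcript. Between the empty vector arrays Ddx58 is at 0.03 for its 3′ probe and at 1.79 for the probe 1549 bases upstream, while Tlr3 is above 1 at both places.

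Other genes of the pathway were taken from lists, with 1 probe, the brightest tested, for each gene. Of 123 such probes 0 were called changed, against 0.00851% of gene names called higher (2 of 23492) and 0 called lower. The genes named below are taken from those with the largest differences in each list, and stand as values only.

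Among other nucleic acid sensors (19 of 20 genes tested), 8 had a higher mean with the Hdac6 vector (50.8% of all tested gene names), with a median log2 fold change of -0.15, against 0.00 over all tested gene names. Tlr8, with the largest log2 difference of the list, read -5.98 and -6.43 with the Hdac6 vector, against -5.73 and -5.61 with the empty vector. It was well above background on both empty vector arrays and not on either Hdac6 vector array. Tlr8 thus entered the test through the empty vector group alone, where it was higher. The lowest level of any probe still well above background differed by array. It was -5.82 and -5.33 with the Hdac6 vector, against -6.38 and -6.04 with the empty vector. Dhx9, an RNA helicase, was higher with the Hdac6 vector without overlap, at -3.67 and -3.75, against -4.35 and -4.03 with the empty vector (1.39-fold). Cgas, the sensor of cytoplasmic DNA, read 1.83 and 2.26 with the Hdac6 vector, against 2.61 and 2.28 with the empty vector (0.756-fold). Its groups did not overlap, though the nearest arrays were 2.26 and 2.28. On empty vector 2, 12 of the 19 were above empty vector 1 (47.9% of all gene names), and 0 were at least 2-fold above it (3.25%). Mndal was 1.74-fold above and Nod2, a sensor of bacterial cell wall, at 0.601-fold.

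The adaptors, kinases and ubiquitin ligases beside Mavs and Tbk1 (20 of 21 tested) had a median of -0.07. Traf3, which links Mavs to Tbk1, read 2.35 and 2.52 with the Hdac6 vector, against 2.91 and 2.69 with the empty vector. The groups did not overlap for Traf3, at 0.774-fold. Rnf135, a ubiquitin ligase of Ddx58, had the largest difference in the other direction among those named by the rule, 1.23-fold, with overlapping groups. Of the 20, 12 were above empty vector 1 on empty vector 2 (47.9%), and 0 were at least 2-fold above it (3.25%). Azi2, a Tbk1 binding adaptor, was at least 2-fold lower there, at 0.466-fold.

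Of 18 other interferon genes 15 were matched on the array and 10 were tested, 9 of them well above background on all 4 arrays. Ifna4, Ifne, Ifnk and Ifng were not well above background on any array. None of the 10 was at least 2-fold higher on empty vector 2 than on empty vector 1 (3.25% of all gene names). Their median difference there was 0.22. Ifna11 read -4.61 and -4.62 with the Hdac6 vector, against -4.19 and -3.62 with the empty vector. Ifna7 read -4.66 and -4.25 with the Hdac6 vector, against -5.28 and -4.93 with the empty vector. The Ifna genes share much of their sequence, so a probe can read several of them. Of the other interferon regulatory factors (6 of 7 tested), Irf5 was 2.07-fold higher on empty vector 2 than on empty vector 1 and Irf4 at 0.490-fold.

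Most of the listed genes that interferon raises were apart between the empty vector arrays in the same direction as Ifnb1. Of 28 such genes, all 28 tested, 25 were above empty vector 1 on empty vector 2 (47.9% of all gene names). At least 2-fold above it were 11 of the 28 (3.25%). Empty vector 2 was the highest array for 19 of the 28 (18.1% of all gene names). Ifit1, which binds foreign RNA, read 4.49 and 4.69 with the Hdac6 vector, against 3.61 and 5.40 with the empty vector. Rsad2 (viperin), an antiviral enzyme, read 4.88 and 4.67 with the Hdac6 vector, against 4.11 and 5.77 with the empty vector. For both genes the Hdac6 vector arrays lay between the empty vector arrays, unlike Ifnb1, which was as low on the Hdac6 vector arrays as on empty vector 1. Cmpk2, a mitochondrial nucleotide kinase, was 3.27-fold above empty vector 1 on empty vector 2. The median of empty vector 2 minus empty vector 1 was 0.69 in this list and -0.02 over all gene names. Hdac6 vector 2 minus Hdac6 vector 1 had medians of 0.33 and 0.20. Of the 28 genes, 22 were higher on Hdac6 vector 2 than on Hdac6 vector 1 (68.2% of all gene names). The log2 of the list's summed linear levels was 10.54 and 10.93 with the Hdac6 vector. With the empty vector it was 10.56 and 10.89, so array 2 was higher in each group by that sum. Gbp2, a guanylate binding protein, had the largest fold in the list, 1.71 with the Hdac6 vector. It passed limma's test without empty vector 2 (log2 1.55, adjusted p = 0.00539) and not with all 4 arrays (limma adjusted p = 1.00).

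Of 12 interferon receptor and JAK-STAT genes, all tested, 10 were above empty vector 1 on empty vector 2 (47.9% of all gene names). Their median there was 0.15. Inhibitors and nucleases that limit the pathway (24 of 24 tested) had a median of -0.02 there and 0 genes at least 2-fold above (3.25%). Adar, which edits double-stranded RNA, was 1.95-fold above. Of the 5 partners of Zbp1 in cell death, 4 were above empty vector 1 on empty vector 2 (47.9%). Among the 4 were Ripk3 (1.61-fold) and Mlkl (1.88-fold).

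**Figure D5:**
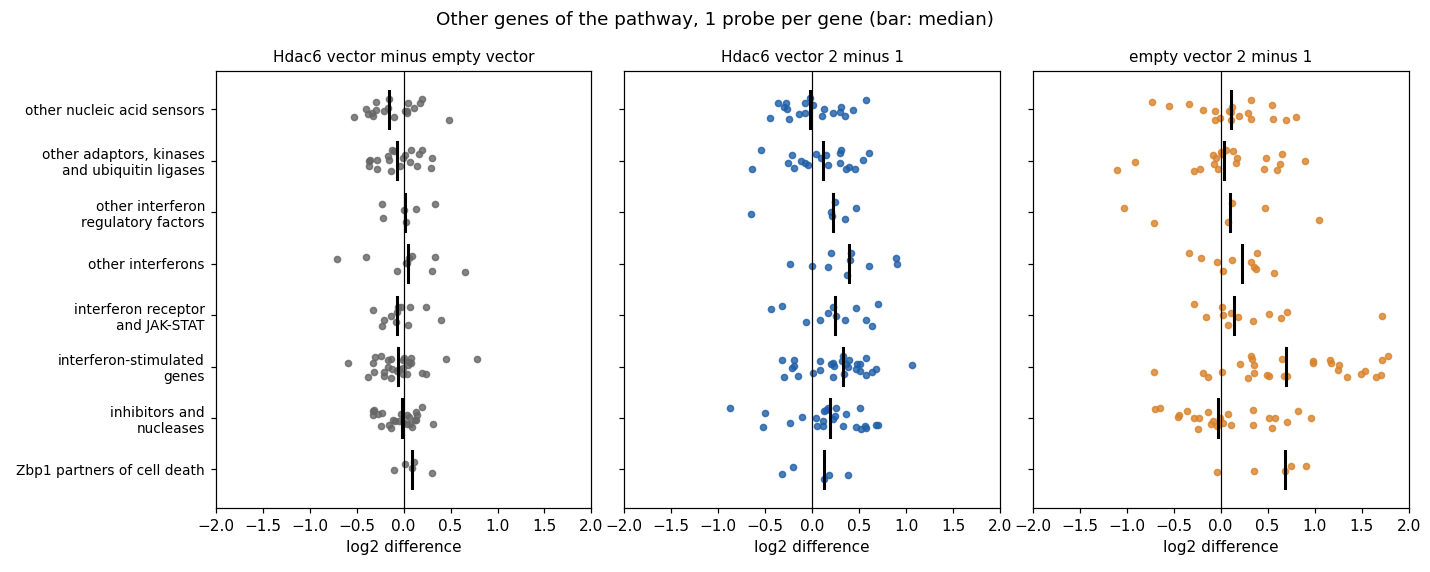
Log2 differences for 1 probe per gene (points) in each list of other pathway genes, with a bar at the list's median, for the Hdac6 vector minus the empty vector (left), Hdac6 vector 2 minus 1 (middle) and empty vector 2 minus 1 (right). The interferon-stimulated genes have a median of 0.69 in the right panel and -0.06 in the left panel.

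Markers of germ cells and of other cell types were read beside these differences. Of the 7 tested leukocyte markers, 2 were above empty vector 1 on empty vector 2 (47.9% of all gene names). Of these markers, 0 were at least 2-fold above (3.25%). Their summed level (log2 of the sum of linear levels) was 6.34 and 6.66 with the Hdac6 vector, against 6.84 and 6.59 with the empty vector. Siglech makes up most of that sum, at 6.02 and 6.45 with the Hdac6 vector, against 6.43 and 6.30 with the empty vector. Cd68 read 3.32 and 2.89 with the Hdac6 vector, against 4.51 and 3.53 with the empty vector. It was lower with the Hdac6 vector without overlap, as 11.9% of all tested probes were. Of the 9 tested spermatogonial markers, 2 were above empty vector 1 on empty vector 2 (47.9%). Their summed level was 4.25 and 4.69 with the Hdac6 vector, against 5.34 and 4.34 with the empty vector, and rests almost wholly on Uchl1 and Etv5, the other 7 reading -1.34 or lower.

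Of 6 Sertoli markers 5 were tested, and Amh was not well above background on any array. Of the 5, 0 had a higher mean with the Hdac6 vector (50.8% of all gene names). Of the same 5, 1 was above empty vector 1 on empty vector 2 (47.9%). Wt1, the brightest of them, read 6.58 and 7.02 with the Hdac6 vector, against 7.09 and 6.75 with the empty vector. Rhox5 read -3.34 and -2.43 with the Hdac6 vector, against -1.27 and -2.74 with the empty vector. Of 6 peritubular or fibroblast markers 5 were tested, not Thy1, and all 5 had a higher mean with the Hdac6 vector (50.8%). Their median log2 fold change was 0.13, and the groups overlapped for all but Acta2. Acta2, smooth muscle actin, read 3.58 and 3.73 with the Hdac6 vector, against 3.06 and 3.12 with the empty vector, without overlap. Col1a1, the brightest of this list, read 7.01 and 7.26 with the Hdac6 vector, against 7.02 and 7.08 with the empty vector. None of these markers was called changed (limma, adjusted p under 0.05). Wt1, Rhox5, Acta2, Col1a1, Siglech, Cd68, Uchl1 and Etv5 were singled out with their values in view. The part of other cells in the values of the 10 genes was not tested. In bulk RNA such as this, a signal from fewer cells and one from less RNA in each cell cannot be told apart. This holds for Ifnb1 too.

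The 5 gene names whose centred levels over the 4 arrays lay nearest to Ifnb1 were Selplg, Tmprss9, Gm14446, Lsmem1 and Slfn4, at Euclidean distances of 1.14, 1.15, 1.18, 1.27 and 1.31 log2 units. They were taken from probes well above background on all 4 arrays. Gm14446 read -1.35 and -1.36 with the Hdac6 vector, against -1.82 and -0.07 with the empty vector. Slfn4, of the schlafen family, read -2.85 and -3.73 with the Hdac6 vector, against -3.59 and -1.83 with the empty vector. All 5 were highest on empty vector 2, as Ifnb1 was, which follows largely from how they were picked. With 4 arrays this likeness is a description.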

How the data were processed

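Per the file headers, the deposited scanner files hold spot intensity extracted with Feature Extraction 11.5.1.1 (protocol GE1_1105_Oct12), background-subtracted and detrended, not normalized between arrays. All 4 arrays were on 1 slide, scanned on 1 day. The authors' deposited value table holds log2 values in 37060 rows, with column medians of -3.71 and -3.68 (Hdac6 vector) and -3.78 and -3.67 (empty vector). For 25179 gene names with 1 probe, at least 99.78% of rows on each array (tolerance 0.01) lay at a constant from the level used here, which settles scale and direction. No source used here says how rows with several probes were made. The table served as an alternative only.

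Spots of repeated probes were averaged, outlier spots left out, and each array's 75th percentile over non-control probes was subtracted on the log2 scale. Probes well above background on both arrays of at least 1 group were tested with limma 3.58.1 in R 4.3.3 (lmFit, eBayes with trend, 2 residual degrees of freedom), two-sided, with Benjamini-Hochberg adjustment over 35206 probes. The function was tested on simulated data. The number of arrays limits the precision. Probe positions are mm9 and 1-based, per the file headers. Names were matched to RefSeq GRCm38.p6 for 43730 probes and kept as in the files for 12860.

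The 10 genes and the lists were chosen with earlier results of these data known. Named are the 10 genes with every probe, up to 4 genes per list with the largest fold change and up to 4 with the largest difference within a group, and the 5 gene names nearest to the gene of widest range. Some values under this rule are not reported here. Values of marker lists and of the Hdac6 probe are given beside the results. Same-numbered arrays tended to deviate in opposite directions (r = -0.36 over 35206 probes), so the numbers were not taken as pairs. Alternatives were normexp with an offset of 50, quantile, median and detected-probe scaling, filters, no trend, the value table, blocks and leaving out each array.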

Additional observations from a re-analysis of the deposited data

How the results depend on the processing

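The 10 genes had 0 called probes in all settings that used all 4 arrays, and 0 to 1 without 1 array. Other pathway genes had 0 to 1 without 1 array, Gbp2 without empty vector 2 and Ticam2, which did not pass the filter with all 4 arrays, without Hdac6 vector 1 (log2 6.70). Over all probes the count of 4 became 26 with normexp, 2 with quantile normalization, 0 with median scaling (727 at an unadjusted p under 0.05), 0 with the percentile over detected probes (644), 2 without a trend, 31 in the authors' value table and 0 to 334 without 1 array (175 without Hdac6 vector 1, 0 without Hdac6 vector 2, 30 without empty vector 1, 334 without empty vector 2). The replicate number as a block gave 22 calls over all probes and 0 among the 10 genes. Crossing the numbers, added after the data were seen, gave 14 and 0. The causes were not tested.

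Of 100 log2 fold changes of the genes' brightest probes under alternatives with all 4 arrays, 50 come from settings that cannot move them (filters, no trend and blocks). Of the other 50, 5 turned sign and none crossed the threshold, Ifih1 (0.026) and Tlr3 (0.086) with normexp, and Ddx58 (0.10), Dhx58 (0.26) and Tlr3 (0.14) in the value table. Without 1 array the ranges were -0.43 to 0.36 for Ifih1, -0.47 to 0.18 for Ddx58, -0.44 to 0.34 for Dhx58, -0.72 to 0.67 for Tlr3, -0.22 to 0.79 for Zbp1, -0.33 to -0.26 for Mavs, 0.11 to 0.44 for Tbk1, -0.27 to 0.21 for Irf3, -0.11 to 0.41 for Irf7 and -2.72 to 0.057 for Ifnb1, so 8 of 10 took both signs. At 1.5-fold in place of 2-fold, 6 of the 19 probes were apart between the Hdac6 vector arrays and 14 between the empty vector arrays (12 higher and 2 lower on array 2). At 2-fold, normexp gave 0 between the Hdac6 vector arrays and 4 between the empty vector arrays. Ifnb1 stood 2.20 to 2.83 higher (log2) on empty vector 2 than on empty vector 1 in every scaling. Tlr3, the dimmest probes of Ddx58 and Dhx58, and most interferons lie near background, which limits their differences.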
